A study of Homo sapiens with 6 samples.

Results

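The integrated stress response (ISR) is described here through 10 genes in COV434 cells. They are 3 kinases (EIF2AK1, EIF2AK3 and EIF2AK4), the transcription factor ATF4, its stress-linked targets DDIT3, PPP1R15A and TRIB3, and the biosynthetic enzymes ASNS, PSAT1 and PHGDH. They were chosen by gene symbol, with earlier results of these data known, and all 10 were found among the 16798 genes of the deposited gene table. Total RNA of 6 samples was sequenced, of which 3 were control samples and 3 had been exposed to 15 µM 4-hydroxycyclophosphamide (4HC) for 24 h. 4HC is the active metabolite of cyclophosphamide (CTX), an alkylating chemotherapy drug that damages the ovary. All samples were wild-type COV434 cells grown in DMEM with fetal bovine serum, a single immortalized line labelled as granulosa cells (GCs), and whether the controls received a vehicle was not stated. The labels do not say whether the replicates came from separate cultures, so that the p-values measure only the spread between these samples, which may be technical.

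In the ISR, 4 kinases respond to different stresses and phosphorylate the same serine of eIF2α, the regulatory subunit of the initiation factor that brings the first tRNA to the ribosome. Phosphorylated eIF2 blocks its own exchange factor eIF2B, so that most translation slows while the ATF4 mRNA, whose upstream reading frames restrain it in unstressed cells, is translated better. ATF4 then activates genes of amino acid uptake and synthesis, tRNA charging and, under lasting stress, cell death. Because much of this control is exerted on translation, the mRNA levels given below measure neither ATF4 protein nor eIF2α phosphorylation.

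The libraries held 16133786 to 16702316 expected counts, an expected count being an estimate of the reads from a gene that need not be a whole number. The rounded counts of 12368 genes passed the filter on low counts and were tested with edgeR's quasi-likelihood test, and p-values were adjusted by the Benjamini-Hochberg method over all of them. A gene is called higher or lower below where its adjusted p-value was under 0.05. Replicates varied little (biological coefficient of variation 0.0277), and the first principal component, with 69.8% of the variance, separated the 2 conditions. Of the GC markers, 6 of 9 were below 1 TPM (an expression level scaled to transcript length and library) in every sample. FOXL2 reached 0.11 TPM at most and FSHR 0.01 TPM, whereas HSD17B1 lay between 19.2 and 24.6 TPM and AMH between 3.94 and 6.73 TPM. The summed level of the GC markers was 24.1 to 33.3 TPM in control and 28 to 29.3 TPM in 4HC. Markers of other cell types were below 1 TPM in every sample for 6 of 9, among them PECAM1 and CDH1, and their sum, most of it ACTA2, was 325 to 347 TPM in control and 337 to 340.2 TPM in 4HC. COV434 has since been reassigned by others to a small cell carcinoma of the ovary, a tumor defined by loss of the SMARCA4 protein that typically also lacks SMARCA2. In these samples SMARCA4 mRNA was at 6.27 to 8.5 TPM and SMARCA2 at 0.07 TPM or less.

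ATF4 binds DNA with partners of the C/EBP family at a composite site, and the letters TGATGNAA (N is any base) were searched on both strands of the RefSeq promoter windows of GRCh38.p14. A window runs from 250 bases before an annotated start to 50 bases after it, and a gene can have several starts, some of them inside its span. The letters stood in 1270 of 35116 windows (3.62%). Windows were found for 9 of the 10 ISR genes, all but EIF2AK1, and among these only a window of ASNS held them. The promoter stretches of ASNS, of CHAC1 and PPP1R15B, which control glutathione and eIF2α, of the glutamine transporter SLC1A5 and the mitochondrial folate enzyme MTHFD1L, and of the tRNA synthetases GARS1, IARS1 and AARS1 are shown because these genes stood lower in 4HC, a choice made after their values were seen. Each is given 5′ to 3′ on the gene's strand, with the motif in capitals; TTGCATCA and TTTCATCA are the same motif read from the opposite strand.
ASNS (chr7:97872453-97872492, minus strand): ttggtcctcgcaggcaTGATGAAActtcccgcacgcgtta
CHAC1 (chr15:40953246-40953285, plus strand): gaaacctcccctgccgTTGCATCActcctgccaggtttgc
PPP1R15B (chr1:204412021-204412060, minus strand): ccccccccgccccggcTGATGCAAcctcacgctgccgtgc
SLC1A5 (chr19:46784888-46784927, minus strand): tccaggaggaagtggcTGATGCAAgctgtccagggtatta
MTHFD1L (chr6:150866341-150866380, plus strand): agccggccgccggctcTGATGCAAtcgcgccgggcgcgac
GARS1 (chr7:30594829-30594868, plus strand): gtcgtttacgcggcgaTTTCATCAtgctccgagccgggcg
IARS1 (chr9:92293698-92293726, minus strand): ccgcattttcagcgcgTTGCATCAcctcc
AARS1 (chr16:70289670-70289709, minus strand): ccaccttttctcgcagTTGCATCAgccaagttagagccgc

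The motif of ASNS began 68 bases before the annotated start of its window, a start that lies inside the gene's full span and not at its outer end. Windows of ATF3, JDP2 and GOT1, genes of the lists below that were not called, also held the motif and are not shown. A match is a description of letters and does not show binding, and a window without a match says only that the letters are not in that window.

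Of the 10 ISR genes, 4 (40.0%) were called between 4HC and control, against 36.4% of all genes tested. DDIT3 was higher, while EIF2AK4, ATF4 and ASNS were lower. Scaled to library size alone, EIF2AK1 was also called higher, which turned the split from 1 higher and 3 lower into 2 higher and 3 lower. In one direction, 19.2% of all genes were called higher and 17.1% lower. None of the 10 reached a fold change of 2, as 1.15% of all genes did with an unadjusted p-value under 0.05. The groups did not overlap for 6 of the 10 genes, 3 of them above and 3 below control, against 23.4% of all genes above and 21.9% below. The median log2 fold change of the 10 genes was 0.01 and that of all genes tested was 0.00. RNA was measured as a share of each library, and fewer cells of one state and less RNA per cell cannot be told apart in such bulk samples.

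**Figure D1:**
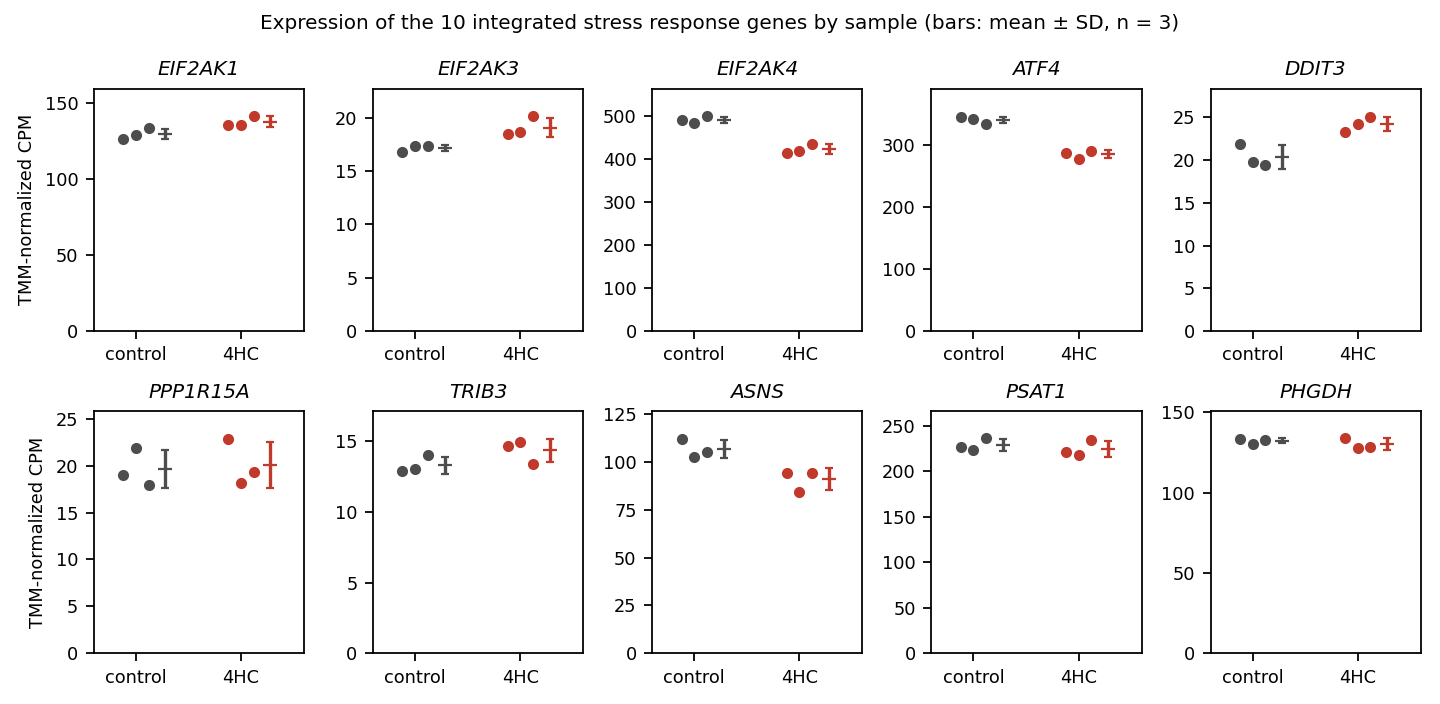
TMM-normalized CPM (read counts scaled to library size, linear axes from 0) of the 10 ISR genes, with a point for each of 3 control and 3 4HC samples and the mean ± SD beside them. EIF2AK4, ATF4 and ASNS lay lower in every 4HC sample, EIF2AK1, EIF2AK3 and DDIT3 lay higher, and the samples of PPP1R15A, TRIB3, PSAT1 and PHGDH overlapped.

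Of the 3 kinases, EIF2AK4 was called lower and the other two were not called. EIF2AK4 (GCN2, which senses uncharged tRNA and stalled ribosomes, GRCh38 chr15:39934115-40035591) had 490.0, 485 and 499.5 CPM in the control samples and 415, 419 and 436 CPM in the 4HC samples. Every 4HC sample was below every control. CPM are counts scaled to library size with TMM factors, which compare a gene between samples. EIF2AK4 fell by 13.8% (log2 fold change -0.21, SE 0.032, adjusted p = 2.39e-07, edgeR's quasi-likelihood test).

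EIF2AK1 (HRI, which is activated when heme is short and by mitochondrial stress, chr7:6022247-6059611) was at 127, 129 and 133 CPM in control and at 136, 136 and 142 CPM in 4HC. The 4HC samples lay above the controls by a narrow margin. The log2 fold change was 0.09 with a 95% interval of 0.01 to 0.17 and did not pass the adjusted threshold (adjusted p = 0.0725, edgeR's quasi-likelihood test). The span of EIF2AK1 shares 5177 bases with ANKRD61, which was not among the genes tested. It also shares 1588 bases with AIMP2, which was lower (log2 fold change -0.27, adjusted p = 0.000987, same test). EIF2AK3 (PERK, the kinase of the endoplasmic reticulum, chr2:88556741-88627464) had 16.8, 17.4 and 17.3 CPM in control and 18.5, 18.6 and 20.1 CPM in 4HC, again without overlap. Its log2 fold change was 0.15 with a 95% interval of 0.00 to 0.30, and it was not called (adjusted p = 0.11, same test). EIF2AK2 (PKR, the double-stranded RNA kinase, which is not one of the 10 genes) had overlapping groups of 139.5 to 145 CPM in control and 136 to 141 CPM in 4HC, with a log2 fold change of -0.05 (95% interval -0.12 to 0.03, adjusted p = 0.358, same test).

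On the TPM scale, which allows genes to be compared, EIF2AK4 was the most abundant kinase at 146 ± 3.26 TPM in control and 125 ± 3.20 TPM in 4HC (SD, n = 3). EIF2AK1 followed at 60.5 ± 1.36 and 64.0 ± 1.6 TPM, EIF2AK2 at 23 ± 0.526 and 22.2 ± 0.382 TPM, and EIF2AK3 at 6.38 ± 0.0577 and 7.12 ± 0.384 TPM. The order of the 4 kinases was the same in both conditions. Of their summed TPM, EIF2AK4 took 62.2%, 61.7% and 61.9% in the control samples and 57.3% in each 4HC sample. The share of EIF2AK1 was 25.6%, 25.6% and 25.7% in control and 29.3%, 29.3% and 29.2% in 4HC, and that of EIF2AK3 was 2.68%, 2.76% and 2.65% against 3.19%, 3.21% and 3.36%. The share of EIF2AK2, whose level was not called, was 9.58%, 9.87% and 9.74% in control and 10.2%, 10.2% and 10.1% in 4HC. The shares must add up to the whole, so that a share can be higher where another kinase is lower, and none of them overlapped between the groups. The sum itself was 232 to 242 TPM in control and 215 to 225 TPM in 4HC. No test was run on the shares.

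**Figure D2:**
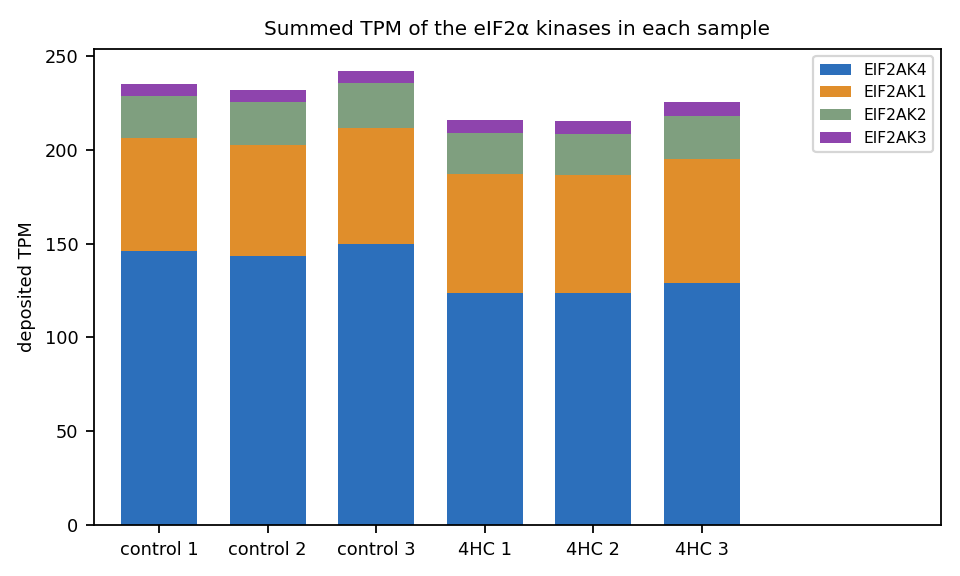
Deposited TPM of the 4 eIF2α kinases, stacked in 1 bar for each sample on a linear axis from 0. The EIF2AK4 segment is the tallest in all 6 bars and takes 61.7% to 62.2% of the sum in control and 57.3% in 4HC.

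ATF4 mRNA itself was lower after 4HC. ATF4 (chr22:39514494-39522686) had 345, 342 and 334 CPM in control and 287, 278 and 291 CPM in 4HC. Every 4HC sample was below every control. ATF4 fell by 16.2% (log2 fold change -0.26, SE 0.033, adjusted p = 1.04e-08, edgeR's quasi-likelihood test). In TPM it remained the most abundant of these genes, at 448 ± 6.31 in control and 375 ± 11.5 in 4HC (SD, n = 3). Its main listed transcript, which took 85.9% to 89.4% of the gene's expected counts, had 4839 ± 72.6 expected counts in control and 4120 ± 162 in 4HC. The next transcript had 680.2 ± 60.1 and 521 ± 46.2 expected counts, and neither pair of groups overlapped. The transcripts share exons, so that these values are estimates and were not tested. The deposited span of ATF4 shares 3640 bases with MIEF1, which was also lower (log2 fold change -0.13, adjusted p = 0.0168, same test, and 0.0742 without the second control). In RefSeq, ATF4 starts at chr22:39520559, beyond the listed end of MIEF1 at 39518133. How many reads of the shared bases were given to which gene was not stated.

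DDIT3 (CHOP, a C/EBP-family factor that ATF4 induces and that promotes cell death under lasting stress, chr12:57516588-57520517) went the other way. It had 21.9, 19.8 and 19.4 CPM in control and 23.4, 24.2 and 25.0 CPM in 4HC. The lowest 4HC sample was above the highest control. DDIT3 rose 1.19-fold (log2 fold change 0.25, SE 0.070, adjusted p = 0.00376, edgeR's quasi-likelihood test). Each of its 3 main listed transcripts had overlapping groups, and the rise was measured over the whole gene. DDIT3 shares 68 bases with its neighbor MARS1, a tRNA synthetase gene that was lower in 4HC (log2 fold change -0.36).

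PPP1R15A (GADD34, the stress-induced subunit that directs protein phosphatase 1 to eIF2α and so ends the response, chr19:48872421-48876058) had 19.0, 21.9 and 18.0 CPM in control and 22.8, 18.1 and 19.3 CPM in 4HC. The groups overlapped. Its log2 fold change of 0.04 (95% interval -0.13 to 0.20, adjusted p = 0.765, edgeR's quasi-likelihood test) turned negative when the third control or the first 4HC sample was left out. TRIB3 (a pseudokinase induced by ATF4 and DDIT3 that restrains AKT, chr20:380760-399799) had 12.9, 13 and 14 CPM in control and 14.7, 15.0 and 13.4 CPM in 4HC. The third 4HC sample stood among the controls. The log2 fold change of TRIB3 was 0.11 with a 95% interval of -0.07 to 0.28 (adjusted p = 0.349, same test), an interval that reaches the size of the DDIT3 change.

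Of the 3 biosynthetic enzymes, only ASNS was called, and differences between the genes were not tested. ASNS (asparagine synthetase, which makes asparagine from aspartate and glutamine, chr7:97851677-97928441) had 112, 103 and 105 CPM in control and 94.3, 84.5 and 94.4 CPM in 4HC. Every 4HC sample was below every control. ASNS fell by 14.5% (log2 fold change -0.23, SE 0.045, adjusted p = 5.09e-05, edgeR's quasi-likelihood test). Of its 7 listed transcripts, the first and the third by abundance had lower counts in every 4HC sample, at 661 ± 60.8 and 529 ± 90.7 expected counts in control and 561 ± 87.9 and 363 ± 46.9 in 4HC, and the second overlapped.

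PHGDH (the first enzyme of serine synthesis, chr1:119711934-119744218) was at 133, 130.4 and 133 CPM in control and at 134, 128 and 128 CPM in 4HC. PSAT1 (the aminotransferase that follows it, chr9:78297125-78335465) was at 227, 224 and 236 CPM in control and at 221, 218 and 235 CPM in 4HC. Both genes had overlapping groups and were not called. The log2 fold change was -0.02 for PHGDH (95% interval -0.10 to 0.06, adjusted p = 0.697) and -0.03 for PSAT1 (95% interval -0.10 to 0.04, adjusted p = 0.566, both edgeR's quasi-likelihood test). The interval of neither gene reached the ASNS estimate.

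**Figure D3:**
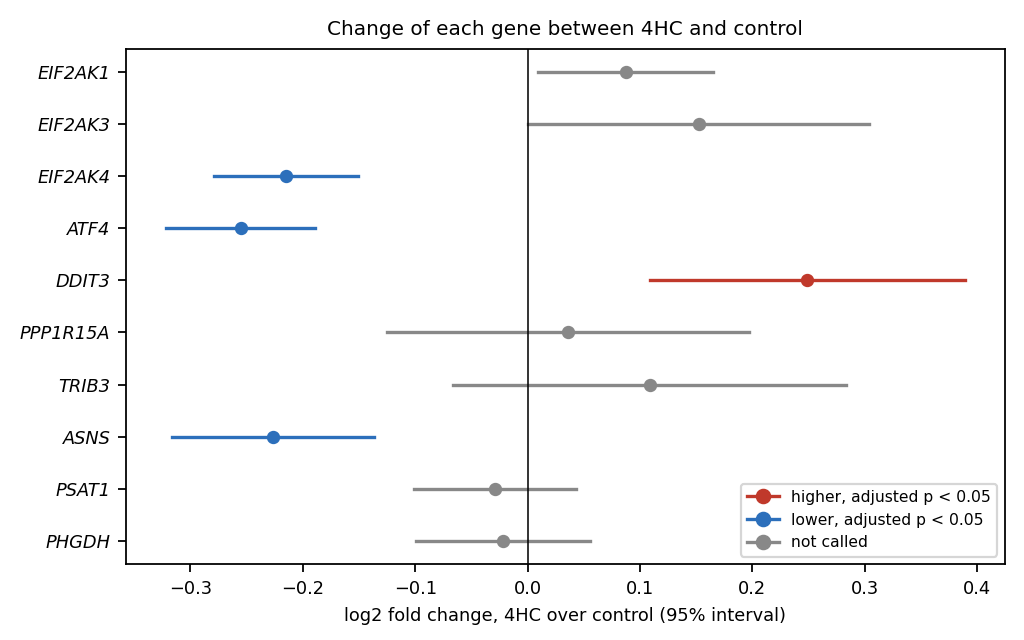
Log2 fold change of each ISR gene in 4HC over control (points) with its 95% interval (lines), from edgeR's quasi-likelihood fit. ATF4, ASNS and EIF2AK4 lie between -0.26 and -0.21, DDIT3 lies at 0.25, and the other 6 genes were not called.

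By TPM in control the genes ran from ATF4 through PSAT1 (187 ± 6.74), EIF2AK4, PHGDH (131 ± 2.37), ASNS (84.9 ± 3.68), EIF2AK1, DDIT3 (45.3 ± 3.58), PPP1R15A (14.9 ± 1.44) and TRIB3 (10.3 ± 0.543) to EIF2AK3 (SD, n = 3). No pair of neighbors in this order overlapped among the control samples. In 4HC the level of PHGDH, 128 ± 4.27 TPM, was next to that of EIF2AK4, 125 ± 3.20 TPM, within their SDs. Of 10271 genes compared over the 6 samples by the Pearson correlation of log2 CPM, ADGRL3 (r = 0.998), CCDC12 (r = 0.997) and TRMT61A (r = 0.997) were most like ATF4. Among the ISR genes, EIF2AK4 (r = 0.965) and ASNS (r = 0.93) came closest to it. These correlations are descriptions, since the 6 points share the difference between the conditions.

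Upstream of ATF4, the subunits of eIF2 and eIF2B, the phosphatase and its partners, and the regulators of the kinases formed a list of 20 genes, all tested. Of these, 1 was called higher and 6 lower, against 19.2% and 17.1% of all genes, and their median log2 fold change was -0.07. With library size as the only scaling the split was 2 higher and 5 lower. PPP1CA, a catalytic subunit of protein phosphatase 1, was higher with 128, 133 and 132 CPM in control and 167, 159 and 159 CPM in 4HC (log2 fold change 0.30, adjusted p = 5.61e-09, edgeR's quasi-likelihood test). The other listed catalytic subunits did not rise: PPP1CC was lower (-0.11, adjusted p = 0.00782, same test) and PPP1CB was not called (-0.05). PPP1R15B, which holds phosphatase activity on eIF2α in unstressed cells, was lower: 103 ± 2.25 CPM in control against 90.2 ± 3.08 CPM in 4HC (SD, n = 3, log2 fold change -0.19, adjusted p = 0.000393, same test). EIF2S2, the β subunit of eIF2 (log2 fold change -0.17), and EIF2A, an alternative initiation factor (-0.16), were lower too. EIF2S1, which encodes eIF2α (-0.11, adjusted p = 0.0135), and EIF2S3, the γ subunit (-0.08, adjusted p = 0.0436, both same test), were lower by less. The 5 eIF2B genes were not called.

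Among the ATF4 partners and other stress factors, 19 of 20 listed genes were in the table and 17 were tested. Of these 5 were higher (29.4%, against 19.2% of all genes) and 4 lower (23.5%, against 17.1%), with a median log2 fold change of 0.13. GDF15, a secreted stress cytokine, had 5.55, 7.75 and 6.82 CPM in control and 30.6, 27.9 and 29.1 CPM in 4HC, a 4.35-fold rise (log2 fold change 2.12, SE 0.089, adjusted p = 3.12e-26, edgeR's quasi-likelihood test). CDKN1A, the cell cycle inhibitor p21, rose 3.49-fold from 225 ± 7.25 to 783 ± 18.0 CPM (SD, n = 3, adjusted p = 2.5e-42, same test). SESN2, a stress-induced inhibitor of mTORC1, had 79.0, 88.9 and 81.2 CPM in control and 138, 135 and 128 CPM in 4HC (log2 fold change 0.68, adjusted p = 1.05e-18), and BBC3, which encodes the pro-apoptotic protein PUMA, had a log2 fold change of 0.77 (adjusted p = 1.21e-16, same test). These 4 genes and TNFRSF10B, the fifth that rose (0.53), are also known targets of p53, and the part of either factor in their rise was not tested.

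The genes of this list that fell were CHAC1, VEGFA, ATF5 and CEBPG. CHAC1, which degrades glutathione and is a sensitive target of ATF4, had 9.68, 8 and 10.2 CPM in control and 7.42, 6.54 and 6.37 CPM in 4HC, without overlap. Its log2 fold change was -0.46 (SE 0.117, adjusted p = 0.00164, edgeR's quasi-likelihood test), the most negative of the list. VEGFA (-0.26), ATF5 (-0.23) and CEBPG, a dimer partner of ATF4 (-0.14, adjusted p = 0.0391), were lower on the log2 scale by less, and the call of CEBPG was lost under 10 of 14 alternatives. ATF3, another early stress factor, was low and scattered, with 4.01, 3.51 and 2.23 CPM in control and 3.98, 3.27 and 3.98 CPM in 4HC (95% interval of the log2 fold change -0.16 to 0.57, adjusted p = 0.395). DDIT4, an inhibitor of mTORC1, had 66.1 to 73.2 CPM in control and 71.9 to 77.8 CPM in 4HC and was not called (log2 fold change 0.08, adjusted p = 0.22, same test).

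Of 15 enzymes of amino acid and one-carbon metabolism, 3 were higher (20.0%, against 19.2% of all genes) and 5 lower (33.3%, against 17.1%), and the list median was -0.07 on the log2 scale. The higher ones were SHMT1 and SHMT2, which pass a carbon from serine to folate (0.33 and 0.11 on the log2 scale), and ALDH1L2, a mitochondrial folate enzyme. ALDH1L2 was weakly expressed, at 1.37 ± 0.0189 CPM in control and 2.55 ± 0.181 CPM in 4HC (SD, n = 3). Its log2 fold change of 0.89 had an SE of 0.222 (adjusted p = 0.00111, edgeR's quasi-likelihood test), and on log2(TPM + 1) with limma the change was 0.24. The lower ones included PYCR3 (log2 fold change -0.32), PYCR1 (-0.24) and ALDH18A1 (-0.13) of proline synthesis and MTHFD1L of the mitochondrial folate pathway (-0.25). The call of SHMT2 was lost without the third control (adjusted p = 0.0851), without the first 4HC sample (0.0557) and without the second 4HC sample (0.0741).

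Most of the listed amino acid transporters and tRNA synthetases that were tested were lower in 4HC. Of 12 listed transporters, 9 were tested and 7 were lower (77.8%, against 17.1% of all genes), none was higher, and the median log2 fold change was -0.24. With single samples left out 5 to 7 transporters were called, as under the other alternatives, and none of them was higher. SLC7A5, the light chain of the large neutral amino acid transporter, had 157, 163 and 153 CPM in control and 128, 123 and 119 CPM in 4HC (log2 fold change -0.35, adjusted p = 1.9e-10, edgeR's quasi-likelihood test). SLC38A2, a sodium-coupled transporter of small neutral amino acids, had 2179, 2024 and 2118 CPM in control and 1655, 1719 and 1734 CPM in 4HC (log2 fold change -0.31, adjusted p = 3.18e-12, same test). The groups did not overlap for either gene.

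SLC1A5, the glutamine transporter, fell by 16.7% from 151 ± 1.91 to 126 ± 3.59 CPM (SD, n = 3), and the adjusted p-value was 1.64e-07 in edgeR's quasi-likelihood test. The glycine transporter SLC6A9 was lower (adjusted p = 0.0333, same test), a call that did not hold under 6 of 14 alternatives. SLC7A11, the cystine carrier that supplies glutathione synthesis, had 19.8, 18.8 and 19.3 CPM in control and 16.3, 18.0 and 18.5 CPM in 4HC. These groups did not overlap, but the log2 fold change of -0.13 (95% interval -0.28 to 0.02, adjusted p = 0.171, same test) was not called.

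All 13 tRNA synthetases on the list were called (against 36.4% of all genes), 12 of them lower (92.3%, against 17.1%), with a median log2 fold change of -0.22. The list was limited to synthetases of the ATF4 response. Like the other lists, it was chosen with earlier results of these data known. Between 11 and 13 were called with single samples left out, and 12 or 13 under the other alternatives. These enzymes load amino acids onto tRNAs, and several are known ATF4 targets. The largest falls were those of MARS1 (methionine) from 214, 209.9 and 205 CPM to 169, 159 and 163 CPM, CARS1 (cysteine) from 52.1, 55.6 and 51.0 CPM to 42.8, 39.2 and 43.0 CPM, and VARS1 (valine) from 201, 210.2 and 206 CPM to 176, 169.8 and 150.0 CPM. None of these groups overlapped, and the log2 fold changes were -0.36 for MARS1, -0.34 for CARS1 and -0.32 for VARS1. YARS1 (tyrosine) fell by 0.27 on the log2 scale. SARS1 (serine) was the exception, whose level averaged 189 CPM among the controls and 227 CPM after 4HC, a log2 fold change of 0.27 (adjusted p = 1.42e-08, edgeR's quasi-likelihood test).

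**Figure D4:**
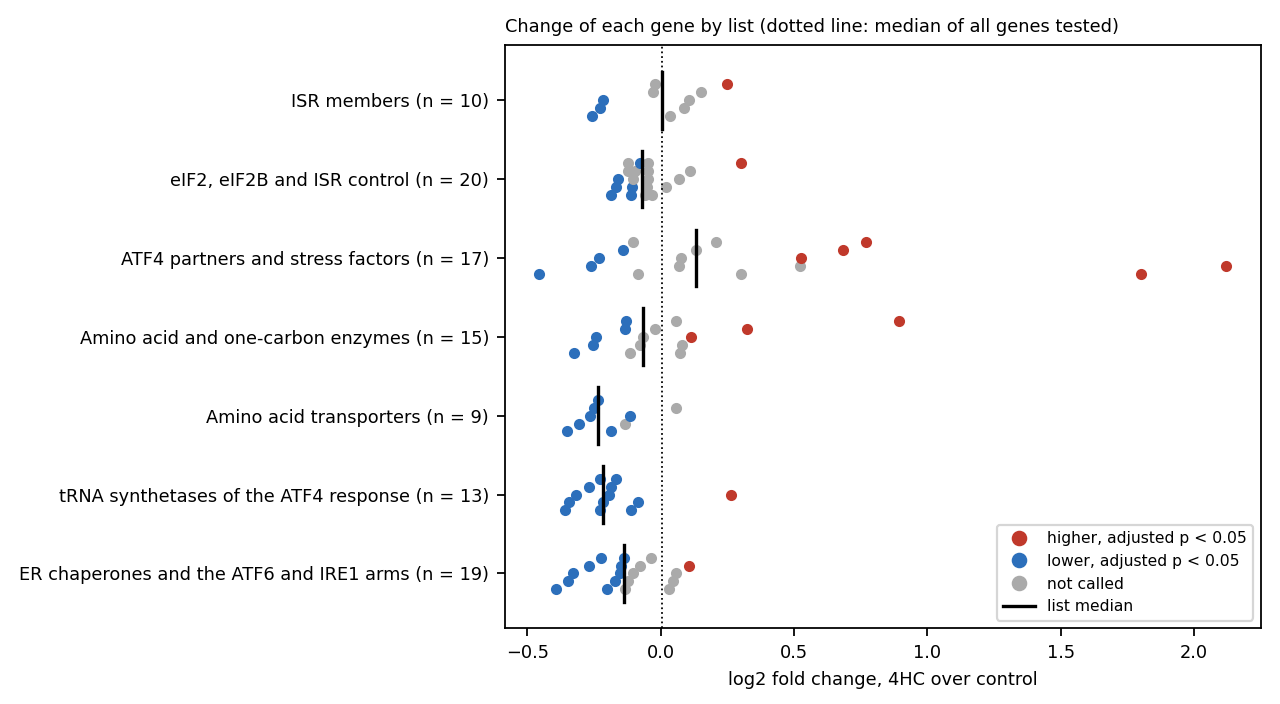
Log2 fold change of each tested gene (points) in 4HC over control, by list, with the list median (black bar), the median of all genes tested (dotted line) and the calls in color. Points of a list are offset vertically only to separate them. The tRNA synthetases and amino acid transporters lie mostly left of 0, and GDF15 and CDKN1A lie farthest to the right.

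The ATF4 composite letters were found in the promoter windows of 7 of 10 tRNA synthetases with a window (70.0%) and of 5 of 10 transporters (50%). In both lists most of these matches crossed or followed the annotated start, and only matches wholly before a start are printed above. The letters stood in 4 of 15 ATF4 partners, in 2 of 7 enzymes, in 1 of 18 genes upstream of ATF4 and in 1 of 19 genes of the endoplasmic reticulum list. Of all genes with a window 4.46% held them, and of the tested ones 2.76%. The list shares include genes that were not tested. The synthetases were listed as genes of the ATF4 response, so that their share describes how the list was chosen. Of the 277 tested genes with the letters in a window, 42 were higher (15.2%) and 69 lower (24.9%), and without the listed genes 42 were higher (16.3%) and 52 lower (20.2%) of 257. Among the 9765 tested genes without the letters, 19.0% were higher and 17.3% lower. The median log2 fold changes of these 3 groups were -0.03, -0.02 and 0.01.

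The chaperones of the endoplasmic reticulum and the ATF6 and IRE1 arms of the unfolded protein response, which act beside PERK, were also often lower. Of 19 genes tested, 1 (CALR, 0.11 on the log2 scale, not called without the first control) was higher and 10 were lower (52.6%, against 17.1% of all genes), and the list median was -0.14 on the log2 scale. HSPA5 (BiP, the chaperone that keeps PERK inactive) had 562, 537 and 566 CPM in control and 449, 433 and 445 CPM in 4HC (log2 fold change -0.33, adjusted p = 2.67e-12, edgeR's quasi-likelihood test). HSP90B1 (GRP94, an HSP90-family chaperone) had 884, 876 and 863 CPM in control and 649, 670.3 and 681 CPM in 4HC (log2 fold change -0.39, adjusted p = 1.39e-15, same test). XBP1, the factor that IRE1 activates by splicing, had a log2 fold change of -0.35 and HYOU1, a chaperone, one of -0.27.

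The ER stress element, searched on both strands as CCAAT, 9 bases of any kind and CCACG, stood in 27 of 35116 windows (0.0769%) and in those of 7 of the 19 genes of this list (36.8%). No window of the 10 ISR genes held it, and no listed gene had both motifs. Of the 7 genes, CANX, HSP90B1, HSPA5, PDIA6 and XBP1 were lower, CRELD2 was not called and only CALR was higher. Of 18 tested genes with the element, 3 were higher (16.7%) and 8 lower (44.4%). Without the listed genes, 2 of 10 were higher and 2 lower. Among tested genes without the element, 18.9% were higher and 17.4% lower. The stretches of HSPA5 and XBP1, which were lower in 4HC, and of CALR, which was higher, are shown because the element stood in genes of either direction. They are given 5′ to 3′ on the gene's strand with the element in capitals, and that of CALR is read from the opposite strand.
HSPA5 (chr9:125241375-125241425, minus strand): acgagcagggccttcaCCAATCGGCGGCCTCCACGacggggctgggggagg
XBP1 (chr22:28800587-28800637, minus strand): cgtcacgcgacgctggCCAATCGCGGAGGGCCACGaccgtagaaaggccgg
CALR (chr19:12938368-12938418, plus strand): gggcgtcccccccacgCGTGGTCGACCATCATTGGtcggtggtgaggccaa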

How the data were processed

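Total RNA of 3 control and 3 4HC samples of COV434 cells was sequenced and grouped by the sample labels, which name the treated samples after CTX. Per the labels, reads were filtered with SOAPnuke and analysed on the Dr. Tom system. The submitters' processing notes name HISAT2, Bowtie2, RSEM 1.3.1, DESeq2 1.4.5 and GRCh38.p13, without their roles. For 16798 genes and 79213 transcripts the authors deposited expected counts, which were not normalized, and 85.5% of the gene values were whole numbers. The deposited TPM and FPKM values were scaled by the authors to length and library, and FPKM values were not used. Columns of the authors' own comparison (fold change, p-value and q-value) and a second, identical gene table were not used. Strandedness of the counting is not given in the sources used here.

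Expected counts were rounded and fitted with edgeR 4.0.16 in R 4.3.3 (filterByExpr, TMM, quasi-likelihood test, condition only, threshold 0.05). Fold changes, standard errors and 95% intervals came from this fit, and TPM was used to compare levels between genes. At 16133786 to 16702316 expected counts per sample, the ISR genes had at least 209 counts in each sample. Intervals and p-values rest on the spread between samples, which edgeR took largely from all genes and less from each gene's own samples. On simulated counts of 12238 genes, the test found 87.8% of 98 genes given a log2 change of 0.5. It found 94% of 100 genes given a change of 1, and 2.7% of its calls were false. The simulation used the dispersion of this fit, and changed a far smaller share of genes than the 36.4% called here. No change below 0.5 was simulated, and those of the 4 called ISR genes were smaller, so that recovery at their size is not known.

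The ISR genes and the gene lists were chosen with earlier results of these data known. Named were the ISR genes, EIF2AK2, PPP1R15B, ATF3, CHAC1, SESN2, DDIT4 and SLC7A11, up to 4 called genes with the largest change in each list (at least 1 CPM), and the 3 genes most like ATF4 (at least 5 CPM). AIMP2, MIEF1, SARS1, CALR, TNFRSF10B, SHMT2, PYCR1, ALDH18A1, ATF5, VEGFA, CEBPG, GARS1, IARS1 and AARS1 were named after their values were seen. So were PPP1CB, PPP1CC, EIF2S1, EIF2S3, CANX, PDIA6, CRELD2, JDP2 and GOT1, which were not followed singly through the alternatives. A called gene of the enzyme list is not reported here. Promoter windows came from RefSeq (GRCh38.p14) and were matched by symbol. The fit was repeated with DESeq2 1.42.0, with size factors of DESeq2 within edgeR, with scaling by library size alone, without a filter, with at least 10 counts required in each sample, with a block for replicate number, with limma 3.58.1 on log2(TPM + 1) and log2(TPM + 0.1), and without each sample in turn. Files were read with Python 3.11.15 and pandas 2.3.3, and figures drawn with matplotlib 3.10.9.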

Additional observations from a re-analysis of the deposited data

How the results depend on the processing

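All 4 calls among the ISR genes kept their direction and their side of the threshold under each of 14 alternatives. The log2 fold change of ATF4 ranged from -0.27 to -0.23, that of EIF2AK4 from -0.24 to -0.19, that of ASNS from -0.26 to -0.18 and that of DDIT3 from 0.21 to 0.30. EIF2AK1 passed the threshold with library size as the only scaling (0.11, adjusted p = 0.0241). Over all genes, leaving out single samples gave 3632 to 4283 calls and the other settings 3357 (DESeq2) to 4533. With single samples left out, the log2 fold change of PPP1R15A ranged from -0.066 (without the first 4HC sample) to 0.12 and was -0.025 without the third control, and that of ATF3 ranged from -0.0055 (without the third control) to 0.38. The cause was not tested. SLC6A9 lost its call with DESeq2 (adjusted p = 0.118), with library size as the only scaling (0.0528) and without control 1 (0.143), control 3 (0.065), 4HC sample 2 (0.0535) or 4HC sample 3 (0.108). CEBPG lost its call under 10 alternatives (adjusted p up to 0.28, log2 fold change -0.087 without the second control). Of 784 values of the 56 named genes followed through the alternatives, 759 kept their direction and side, 21 lost the threshold, 1 gained it and 3 changed sign. Samples with the same number did not deviate together (r = -0.053, -9.32e-05 and 0.132), and the replicate block gave 4215 calls over all genes and 4 among the ISR genes. With 3 samples per group, outlying samples could not be tested, and genes near 1 CPM, such as ALDH1L2, were limited by depth.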
